A study of Mus musculus with 21 samples.

Results

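The genes described here are the SR protein, hnRNP and SF3 splicing factor genes of mouse blood stem and progenitor cells. They were chosen by symbol from the gene table (Srsf, Hnrnp, Sf3a and Sf3b followed by a number or letter, without processed copies named -ps), which gave 40 of 28987 identifiers: 11 SR genes, 20 hnRNP genes and 9 SF3 genes. The splicing table held 275 of its 46443 events in 34 of these genes. Cells of 2 kinds, the long-term blood stem cell (LT-HSC) and the multipotent progenitor (MPP, given in the protocol as MPP3/MPP4), were sorted from lineage-negative bone marrow cells of pooled mice. The 21 libraries of 7 groups, 3 per group, are treated here as 2 batches. The sample titles name no batch, and the split matches 2 separate runs of library numbers in the sample descriptions. Batch 1 held LT-HSC and MPP of a floxed control (Rxrabfl/fl, no Cre) and of an RXR knockout (Rxrabfl/fl with Vav1-Cre, active in blood cells). Batch 2 held only LT-HSC, from a Cre control with wild-type Rxr alleles (Vav1Cre+WT), from animals labelled RXR knockout (Vav1Cre+Rxrabfl/fl) and from the same genotype with 1 further floxed allele, written Mycl in the titles and Myc in the descriptions and called the Myc allele below. The control genotype therefore changed with the batch, and the age of the mice was not given. The retinoid X receptors (RXR) are transcription factors that bind DNA as partners of other nuclear receptors, among them those of retinoic acid.

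Pre-mRNA splicing removes introns in a cycle of assembly steps on the spliceosome. SR proteins bind exonic enhancers and help splice sites to be used, hnRNP proteins coat nascent RNA and often act against a splice site, and the SF3a and SF3b complexes are parts of the U2 snRNP, which holds the branch point. Many SR and hnRNP genes control their own level by including an exon with a premature stop, or by keeping an intron, so that the transcript is destroyed by nonsense-mediated decay. Mutations in SF3B1 and SRSF2 are common in human myelodysplastic syndromes, in which blood stem cells are affected.

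Levels are TPM (relative transcript abundance, corrected for length) which can be set side by side between genes. A single identifier without a symbol, ENSMUSG00000089855, took 10.6 to 51.8% of the TPM scale of a library. The highest share was in floxed control LT-HSC 2, 1 of the 3 controls for knockout LT-HSC, and the next highest was 30.5%. Levels below are therefore deposited TPM divided by a library factor and called rescaled TPM. The factor was the median ratio over 14964 genes, from 0.646 in floxed control LT-HSC 2 to 1.42 in knockout LT-HSC 2. Depth is unknown, since TPM keep none. Rescaling moved the median log2 change of all genes from 0.52 to -0.02 in knockout against control LT-HSC and from -0.20 to 0.03 in knockout MPP against knockout LT-HSC, so changes of the splicing factors are also given relative to that median. The junction of Rxra that skips exon 8 checked the labels: its share was at most 0.10 in floxed controls, 0 in Cre controls, 0.94 in knockout LT-HSC 1, 1.00 in knockout MPP 1 and 0.50 in knockout MPP 3, but at most 0.0127 in the 3 batch 2 libraries labelled RXR knockout and 0.65, 0 and 1.00 in the 3 with the Myc allele, while knockout LT-HSC 2 and 3 and knockout MPP 2 had no value. Rxrb was lower in every batch 1 knockout LT-HSC (6.92 to 9.38) than in every floxed control (11.6 to 15.4), but ran from 10.5 to 14.9 in the labelled batch 2 knockouts against 13.4 to 15.3 in the Cre controls and 5.94 to 11.0 with the Myc allele, so that the signs of RXR deletion also differed between the last group and the labelled knockouts. The 8 MPP markers summed to 1265 to 2190 in floxed control MPP and to 66.9 to 81.5 in floxed control LT-HSC, and the 12 LT-HSC markers to 290.5 to 359 and to 554 to 824.

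Among the splicing factors, Srsf5, an SR gene, had the highest mean level over the 21 libraries (812 rescaled TPM), followed by Hnrnpa1 (524), which packages nascent transcripts and shapes many exon choices, and Hnrnph1 (491), which binds runs of G. Levels at the other end were 15.7 for Sf3b4, 9.15 for Sf3a2, both parts of the U2 snRNP, and 0.873 for Srsf12, an SR gene that did not reach 1 TPM in 3 libraries of batch 1 and was left untested there. The rest lay between 16.5 (Hnrnpll) and 372 (Hnrnpu). Summed over all 40 genes, the level was 4490.1 to 5323 rescaled TPM in floxed control LT-HSC, 3849.7 to 4595 in knockout LT-HSC, 5493 to 5877 in floxed control MPP and 4924 to 5665 in knockout MPP. The hnRNP genes made up the largest part of each sum (2295 to 4008), and the SF3 genes the smallest (259.7 to 481). In batch 2 the sums were higher, 6485 to 6637 in Cre controls, 5808 to 6443 in the labelled knockouts and 5628 to 6688 with the Myc allele. In bulk samples, fewer cells of a type and less RNA per cell cannot be told apart.

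**Figure D1:**
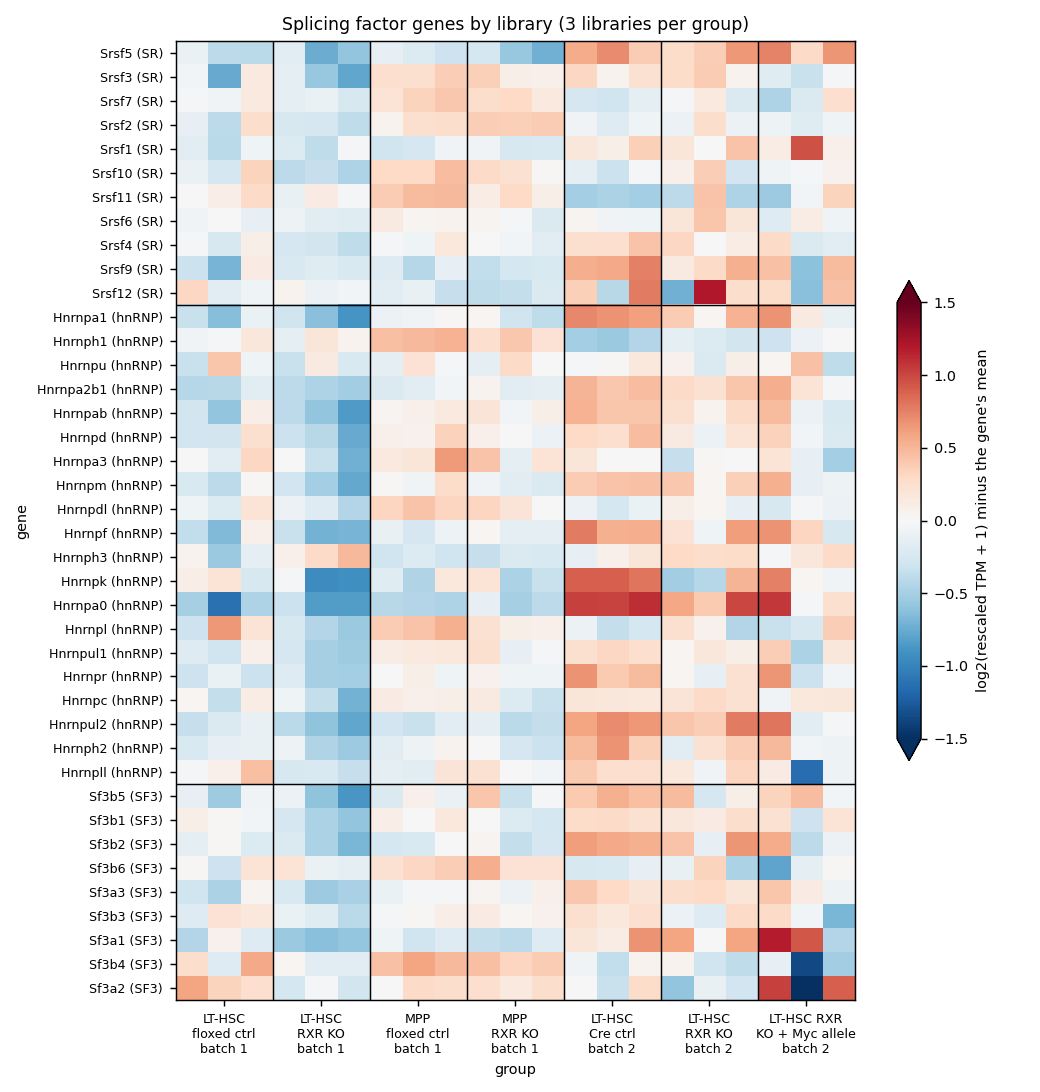
Rows are the 40 splicing factor genes, ordered by family and mean level, and columns the 21 libraries by group. Colour gives log2(rescaled TPM + 1) minus the gene's mean over libraries, and saturates beyond the ends of its scale. Cre controls of batch 2 are red for many genes, such as Hnrnpa0, and knockout LT-HSC 2 and 3 of batch 1 are blue for most, while on deposited TPM the median change in knockout LT-HSC was 0.36.

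In LT-HSC of batch 1, 2 SF3 genes fell in the knockout and no splicing factor gene rose, on rescaled TPM. Sf3a2, a subunit of SF3a (ENSMUSG00000020211) was at 12.9, 10.7 and 10.01 rescaled TPM in the floxed controls and at 6.76, 8.07 and 6.65 in the knockouts. Its log2 change was -0.58 (SE 0.13, limma adjusted p = 0.0335), and every knockout library lay below every control. Sf3b1, the largest SF3b protein and the one mutated in myelodysplastic syndromes (ENSMUSG00000025982), was at 80.0, 75.9 and 73.1 in the controls and at 62.5, 53.7 and 49.3 in the knockouts, again without overlap. Its log2 change was -0.47 (SE 0.12, adjusted p = 0.0458). On deposited TPM, where all genes shifted upward, neither passed: Sf3a2 stood at -0.01 and Sf3b1 at 0.15 (adjusted p = 0.478), both below the median of all genes. These 2 of 39 tested genes compare with 5.05% of 14621 genes that passed in either direction (2.35% higher, 2.70% lower), so their share was near the background.

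More broadly, 33 of 39 log2 changes were below 0 on rescaled TPM (51.6% of all genes were), with a median of -0.26 for the splicing factors and -0.02 for all genes. By family the medians were -0.31 for SF3, -0.28 for hnRNP and -0.19 for SR genes. On deposited TPM the direction turned: 7 genes (Hnrnph1, Hnrnph3, Hnrnpr, Sf3b6, Srsf1, Srsf6 and Srsf9) rose and 0 fell, where 44.6% of all genes rose and 0.580% fell. Relative to the median of all genes the splicing factors lay lower on both scales, by a median of -0.25 on rescaled and -0.16 on deposited TPM. The medians of genes of like abundance differed by class: among all genes over 100 rescaled TPM the median was -0.29, against -0.22 for the 15 splicing factors in that class, among those of 20 to 100 it was -0.13, against -0.26 for 19, and among those under 20 it was 0.04, against -0.40 for 5. These classes were drawn after the data had been seen.

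Including those that did not pass, 12 of 39 genes (30.8%) had an unadjusted p under 0.05, where 27.3% of all genes did. Every knockout library was below every control for 10 genes (13.1% of all genes), among them Sf3a1 and Sf3b2 of the U2 snRNP, Srsf10, an SR protein that represses splicing on heat shock, and Hnrnpd, also known as AUF1, which binds AU-rich messages. Hnrnph3, a small relative of Hnrnph1, was the 1 gene with every knockout above every control: it was at 90.1, 58.4 and 78.3 in controls and at 91.1, 106 and 122 in knockouts, a log2 change of 0.50 (SE 0.16, adjusted p = 0.0748), where 12.4% of all genes had every knockout above. Hnrnpk, a poly(C) binding protein, was at 84.0, 90.0 and 66.0 in controls and at 76.5, 40.0 and 40.8 in knockouts (log2 change -0.65, SE 0.26, adjusted p = 0.131, and -0.03 on deposited TPM). Its first knockout library thus lay among the controls and the other two below them. The same holds for the summed level of all 40 genes, where knockout LT-HSC 1 (4595) lay within the range of the controls.

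Single libraries decided these calls. The count of splicing factor genes that passed in LT-HSC was 0 without floxed control 2, knockout 2, knockout 3 or MPP knockout 3, and 1 (Sf3a2) without floxed control 3, any of the 3 MPP floxed controls or MPP knockout 2. It was 5 without knockout 1, when Hnrnpk, Hnrnpul2, Sf3a2 and Sf3b1 fell and Hnrnph3 rose. It was also 0 when the 4 groups were not fitted together. Shares of all genes that passed in these refits were not counted. Other measures moved with the knockout as well. Between 13923 and 14870 genes reached 1 TPM in knockout LT-HSC and 12455 to 13249 in the controls. The 9 neutrophil markers summed to 119.6 to 1028 rescaled TPM in knockouts and to 38.3 to 99.0 in controls, with 8 and 6 of them at 1 TPM or more on average and none at 0 throughout. The 10 erythroid markers summed to 224 to 338 and to 474 to 818. The 9 B cell markers summed to 257 to 800.2 and to 16.6 to 225, the 9 monocyte, macrophage and dendritic cell markers to 37.2 to 55.9 and to 16.4 to 24.7, and the 7 mast cell, basophil and eosinophil markers to 13.1 to 35.0 and to 5.19 to 7.39. Adgre1, Epx and Cma1 of these lists were at 0 in all controls. None of these 5 lists overlapped between the groups, nor did the 8 MPP markers (84.8 to 124.9 and 66.9 to 81.5). Members of a list did not all move together. Prg2 rose from a mean of 0.523 to 19.7, while Cpa3 and Mcpt8 of its list fell. Igkc (98.4 to 445) carried most of the B cell sum, and Vpreb1 fell. Car2 (302 to 138) led the erythroid fall, and Alas2 rose. In the monocyte list C1qa fell. Of the MPP markers Mpo, Plac8 and Irf8 rose and the rest fell. The part of these measures in the result was not tested.

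Among 147 other spliceosome genes, listed in 9 groups, 7 fell in knockout LT-HSC and 0 rose, on rescaled TPM, where 2.70% of all genes fell and 2.35% rose, so the count was near the background. Among them were Snrpd3 of the Sm ring (log2 change -0.94, adjusted p = 0.0160), U2af2, which reads the 3' splice site (-0.51, adjusted p = 0.0236), and Prpf8, the core of the U5 snRNP (-0.49, adjusted p = 0.0458). The median of the 147 was -0.25 and 129 of them were below 0 (51.6% of all genes). All 14 U2-associated and all 17 tri-snRNP genes were below 0. On deposited TPM 25 of the 147 rose and 0 fell, where 44.6% of all genes rose, with a median of 0.34 against 0.52 for all genes.

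In MPP none of the 39 genes passed between knockout and control by limma, and 1 had an unadjusted p under 0.05, where 9.62% of all genes did and 0.595% passed. The median log2 change was -0.08 (all genes 0.01). Srsf11, an SR-related protein, came nearest, at 128, 137 and 138 in controls and 106, 121 and 104 in knockouts (log2 change -0.28, SE 0.12, adjusted p = 0.446). Sf3b1 was at 80.5, 74.5 and 83.7 in controls and at 74.7, 65.1 and 62.3 in knockouts, so that the ranges met (log2 change -0.24, SE 0.12, adjusted p = 0.583). Srsf2, an SR protein that acts on exonic enhancers and is itself mutated in myelodysplasia, had every knockout MPP (164, 162 and 165) above every control (131, 149 and 152), as 8.72% of all genes had, with an adjusted p of 0.851. Every knockout was below every control for 5 genes (9.98% of all genes): Srsf11, Srsf10, Srsf6, Hnrnph1 and Hnrnpl. The difference of the knockout effect between MPP and LT-HSC passed for none of the 39 genes (0.0274% of all genes), and 3 had an unadjusted p under 0.05 (12.9% of all genes). Sf3a2 had the lowest adjusted p, with a difference of 0.61 (SE 0.19, adjusted p = 0.295).

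**Figure D2:**
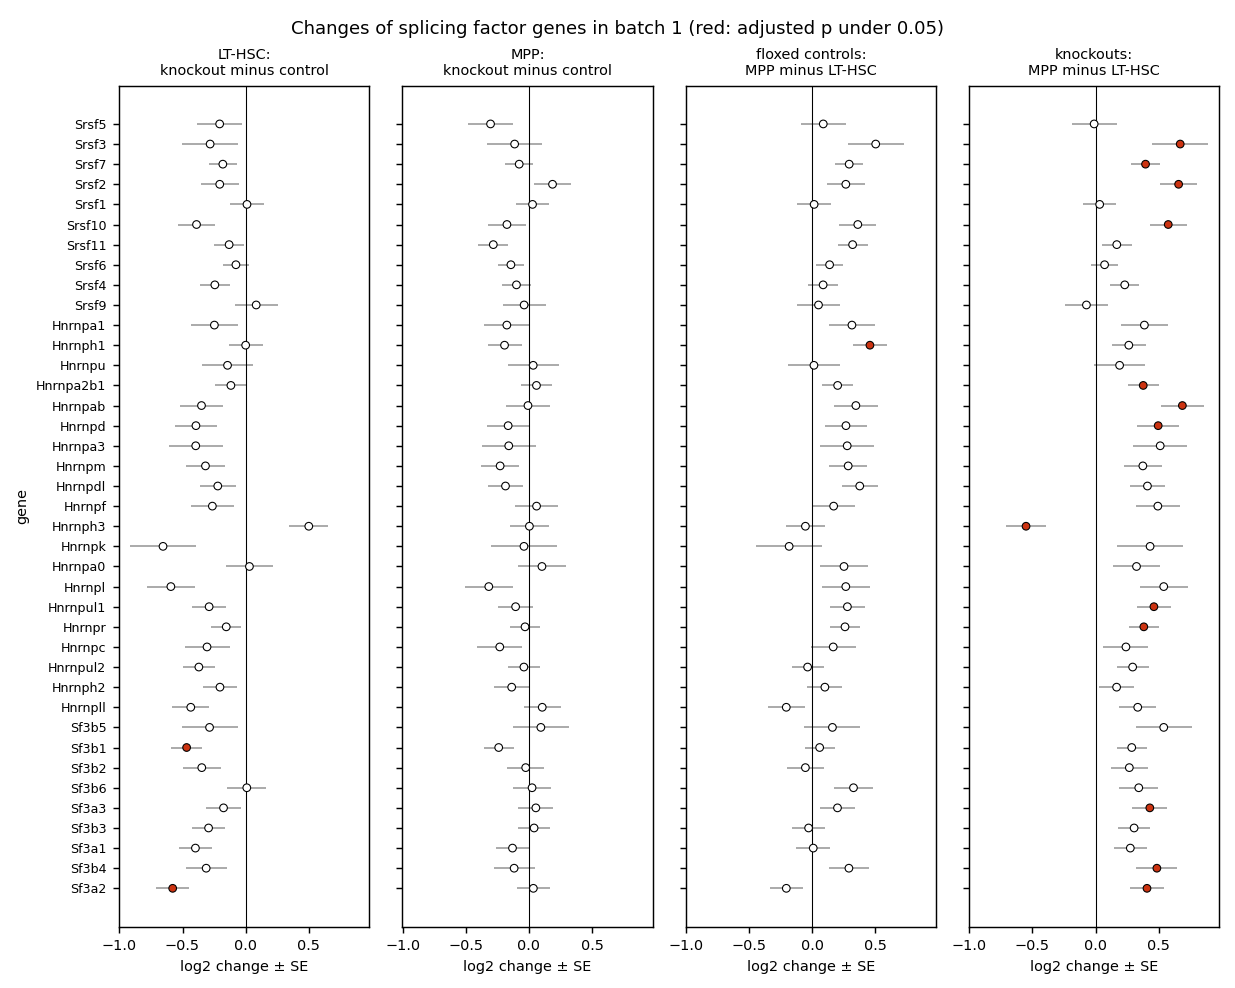
Each row is 1 of the 39 genes tested in batch 1. Points are log2 changes on rescaled TPM and lines their standard errors, and red points have an adjusted p under 0.05. Red points lie left of 0 for Sf3a2 and Sf3b1 in LT-HSC and right of 0 for 12 genes in knockout MPP against knockout LT-HSC; on deposited TPM the median of the first becomes 0.36 and 0 of the 12 pass.

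Between the cell types, in floxed controls, 1 of 39 genes rose in MPP and 0 fell, where 24.3% of 14621 genes passed, 1761 of them higher. Hnrnph1 was at 463, 472 and 539 in LT-HSC and at 658, 674 and 688 in MPP, without overlap (log2 change 0.46, SE 0.13, adjusted p = 0.0266). The labels tie LT-HSC and MPP to the same pools of animals, and with the pool as a block 6 genes rose: Hnrnph1, Hnrnpdl, a relative of Hnrnpd (adjusted p = 0.0407) and the SR genes Srsf3, Srsf7, Srsf10 and Srsf11. The share of all genes that passed with the block, or without single libraries below, was not counted. Srsf3, the smallest SR protein and also an export adaptor, was at 303, 185 and 346 in LT-HSC and at 371, 370.5 and 402 in MPP. Its LT-HSC libraries spread widely, and its adjusted p was 0.118 without and 0.0467 with the block. The median over the 39 genes was 0.20 (all genes 0.02), and 32 were above 0 (52.1% of all genes). An unadjusted p under 0.05 was found for 7 (36.9% of all genes), and every MPP lay above every LT-HSC library for 10 (19.8% of all genes). The B cell markers summed to 2102 to 11442 in floxed control MPP and to 16.6 to 225 in floxed control LT-HSC, and their part in the result was not tested. Without floxed control LT-HSC 2 the 1 gene was Hnrnpl. The count was 0 without floxed control LT-HSC 1 or any of the 3 MPP floxed controls, 12 without floxed control LT-HSC 3, 0 by quantile scaling or with the groups fitted alone, 2 without the filter on low values (Hnrnph1 and Srsf7) and 4 on deposited TPM (Hnrnpdl, Hnrnph1, Hnrnpl and Hnrnpr), where 15.5% of all genes rose.

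In the knockouts, 12 splicing factor genes were higher in MPP than in LT-HSC and 1 was lower on rescaled TPM, of 39 tested, where 23.7% of all genes passed (12.1% higher, 11.6% lower). An unadjusted p under 0.05 was found for 24 (61.5%, against 35.8% of all genes). Srsf2 was at 107, 106 and 97.0 in knockout LT-HSC and at 164, 162 and 165 in knockout MPP (log2 change 0.66, SE 0.15, adjusted p = 0.00678). Hnrnpab, which binds RNA and single-stranded DNA, was at 164, 143 and 119 in LT-HSC and at 245, 209 and 228 in MPP (log2 change 0.69, SE 0.17, adjusted p = 0.0119). Both sets of libraries were apart. The other SR genes that rose were Srsf3 (log2 change 0.67, adjusted p = 0.0434), Srsf10 (0.58, adjusted p = 0.0133) and Srsf7 (0.40, adjusted p = 0.0215).

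The other hnRNP genes that rose were Hnrnpd (0.50, adjusted p = 0.0479), Hnrnpul1 (0.46, adjusted p = 0.0264), Hnrnpr (0.38, adjusted p = 0.0345) and Hnrnpa2b1 (0.38, adjusted p = 0.0438), the last a relative of Hnrnpa1 that also sorts RNA for transport. Of the U2 snRNP, Sf3b4 (0.49, adjusted p = 0.0457), Sf3a3 (0.43, adjusted p = 0.0401) and Sf3a2 (0.41, adjusted p = 0.0412) rose. Hnrnph3 alone fell, from 91.1, 106 and 122 in LT-HSC to 67.7, 74.3 and 73.6 in MPP (log2 change -0.55, SE 0.16, adjusted p = 0.0219), and its call and direction held on deposited TPM (-0.82, adjusted p = 0.0436). On deposited TPM 0 genes rose and 1 fell (3.99% and 15.5% of all genes), and the median of the 39 was 0.11 against -0.20 for all genes, compared with 0.37 against 0.03 on rescaled TPM. Every MPP library was above every LT-HSC library for 23 genes (23.8% of all genes) and below for Hnrnph3 and Srsf9 (20.3%), and all 9 SF3 genes had a log2 change above 0 (52.6% of all genes). Among all genes over 100 rescaled TPM the median was 0.33, against 0.40 for the 15 splicing factors in that class. In the class of 20 to 100 it was 0.18, against 0.31 for 19, and under 20 it was -0.04, against 0.33 for 5. These comparisons share the knockout LT-HSC with the comparison of genotypes.

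With the pool as a block, 20 genes passed, 19 higher and 1 lower, and Sf3a2 did not (adjusted p = 0.0726). The share of all genes that passed with the block or without single libraries was not counted, so these counts have no background. Knockout LT-HSC 3 and knockout MPP 1 mattered most: 1 gene (Srsf2) passed without the former and 2 (Hnrnpab and Srsf2) without the latter. The count was 5 without knockout LT-HSC 2, 5 without knockout MPP 2, 4 without knockout MPP 3, 7 without any 1 of the MPP floxed controls and 19 without knockout LT-HSC 1. By quantile scaling 4 genes passed: Hnrnpab and Sf3a2 higher, Hnrnph3 and Srsf5 lower. The B cell markers, led by Igkc, summed to 622 to 6176 in knockout MPP and to 257 to 800.2 in knockout LT-HSC, and their part in the result was not tested. Of the 147 other spliceosome genes, 28 were higher and 2 lower in knockout MPP (12.1% and 11.6% of all genes), the 2 being Rbfox2 (log2 change -1.19, adjusted p = 0.00222) and Rbm5 (-0.76, adjusted p = 0.0254), both regulators of splice site choice, and 0 of the 147 rose on deposited TPM (3.99% of all genes). Rbfox2 was also lower in MPP of the floxed controls (-1.06, adjusted p = 0.00461).

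**Figure D3:**
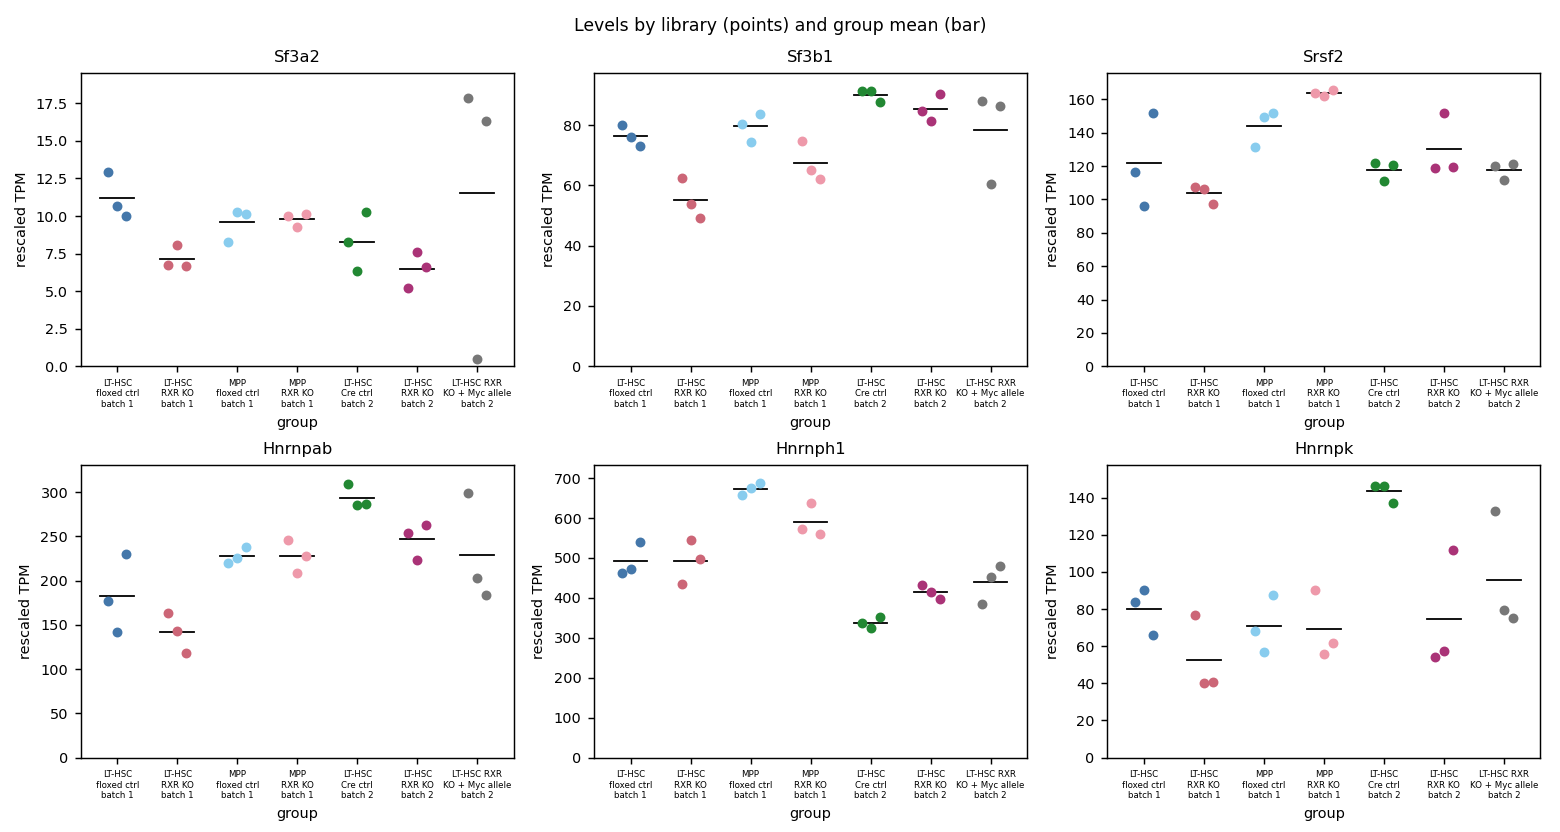
Rescaled TPM (vertical axis, from 0) of 6 genes in each library, by group, with bars at group means. Sf3a2 and Sf3b1 are lower in knockout than in floxed control LT-HSC of batch 1, Srsf2 and Hnrnpab higher in knockout MPP than in knockout LT-HSC, and Sf3a2 runs from 0.453 to 17.9 among the libraries with the Myc allele. On deposited TPM Sf3b1 is not lower in knockout LT-HSC.

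The upstream sequence of 4 of these genes is printed from RefSeq (build GRCm38.p6, 250 bases before an annotated start). Sf3a2 and Sf3b1 were the genes that fell in knockout LT-HSC. Srsf3 and Hnrnpd were picked from the 12 genes that were higher in knockout MPP than in knockout LT-HSC. Lower case marks the sequence and capitals mark the motifs searched on both strands, which were AGGTCA, the hexamer that nuclear receptors bind, CACGTG, the E-box that Myc binds, and CCGGAAG, bound by Ets factors. None of these overlaps another in the 4 sequences. Of the 12 higher genes, as far as they had a RefSeq sequence, only Srsf3 held AGGTCA and only Hnrnpd held CACGTG. The printed pair is therefore not typical of the 12.
Sf3a2, chr10:80798485-80798734, plus strand: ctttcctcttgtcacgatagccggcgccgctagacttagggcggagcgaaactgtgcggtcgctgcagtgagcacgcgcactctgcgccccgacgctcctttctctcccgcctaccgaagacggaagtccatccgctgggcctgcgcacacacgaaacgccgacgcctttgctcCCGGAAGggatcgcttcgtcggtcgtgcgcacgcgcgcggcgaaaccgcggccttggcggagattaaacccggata
Sf3b1, chr1:55027479-55027728, minus strand: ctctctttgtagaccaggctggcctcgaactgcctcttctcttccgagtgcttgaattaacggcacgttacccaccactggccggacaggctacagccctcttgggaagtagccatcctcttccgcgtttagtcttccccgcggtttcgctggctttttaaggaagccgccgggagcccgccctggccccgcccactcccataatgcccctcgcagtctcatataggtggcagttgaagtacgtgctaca
Srsf3, chr17:29032410-29032659, plus strand: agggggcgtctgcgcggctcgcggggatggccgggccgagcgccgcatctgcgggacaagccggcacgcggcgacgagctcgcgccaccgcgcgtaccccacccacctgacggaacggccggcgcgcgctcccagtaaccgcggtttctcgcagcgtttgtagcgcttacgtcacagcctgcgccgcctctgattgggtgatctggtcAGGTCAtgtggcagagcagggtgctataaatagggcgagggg
Hnrnpd, chr5:99978939-99979188, minus strand: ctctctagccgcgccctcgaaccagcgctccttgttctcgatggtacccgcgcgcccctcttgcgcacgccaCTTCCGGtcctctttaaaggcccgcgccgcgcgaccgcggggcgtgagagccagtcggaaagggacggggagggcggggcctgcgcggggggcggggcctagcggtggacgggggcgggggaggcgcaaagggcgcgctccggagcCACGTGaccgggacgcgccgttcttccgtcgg

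Sf3a2 held CCGGAAG starting 76 bases before its start, Srsf3 held AGGTCA 42 bases before, Hnrnpd held CACGTG 32 bases and the reverse complement of CCGGAAG 178 bases before, and Sf3b1 held none of the 3. As annotated, the Hnrnpd gene reaches to chr5:99979130, so its window lay before a start inside the gene. Both of its matches were within the gene. The Sf3b1 window also overlapped its gene, which reaches to chr1:55027501. RefSeq had 49 upstream sequences for 36 of the 40 genes, and Sf3b4, Sf3b5, Hnrnpll and Hnrnpul2 had none. CCGGAAG was in 16 of the 49 (32.7%) and in 6.91% of 32851 upstream sequences of all genes. Its 12 genes included Sf3a1, Sf3a2, Sf3a3, Sf3b2, Sf3b3 and Sf3b6. AGGTCA was in 4 of 49 (8.16%, Hnrnph1, Sf3b3, Srsf3 and Srsf9) and in 14.0% of all, CACGTG in 3 of 49 (6.12%, Hnrnpa3, Hnrnpd and Hnrnpf) and in 6.02% of all, and a direct repeat of AGGTCA with 1 base between, a form that RXR pairs are known to bind, in 0 of 49 and in 0.0335% of all. Such matches describe letters in these windows.

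In batch 2, none of the 40 genes passed in the libraries labelled RXR knockout against the Cre controls by limma (0.0589% of all genes), and 1 had an unadjusted p under 0.05 (3.89% of all genes). That was Hnrnpk, at 146, 146 and 137 in the Cre controls and at 53.9, 57.5 and 112 in the labelled knockouts (log2 change -1.02, SE 0.29, adjusted p = 0.935). The groups did not overlap, though labelled knockout 6 lay nearer the controls. Splicing events without a value numbered 5270 and 8158 in labelled knockouts 4 and 5, and 1363 to 2282 in the Cre controls and labelled knockout 6. With the Myc allele Hnrnpk was at 133, 79.6 and 75.2, in libraries with 2263, 11662 and 6167 such events. The part of library quality in the Hnrnpk values was not tested. Every labelled knockout was below every control for 8 genes (8.73% of all genes) and above for 5 (8.49%), Hnrnph3 among the latter, as in batch 1. With both batches fitted together 0 genes passed (0% of all genes), 15 of 40 had an unadjusted p under 0.05 (20.3% of all genes) and 33 were below 0 (54.0% of all genes). Hnrnpk was the lowest, at -0.84 (SE 0.20, adjusted p = 0.0926), with -0.65 in batch 1 and -1.02 in batch 2, and it fell when labelled knockout 6 was left out. The difference of the knockout effect between batches passed for 0 of 40 genes (0.139% of all genes), and 4 had an unadjusted p under 0.05 (9.99% of all genes).

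No splicing factor gene passed for the Myc allele by limma, either against the labelled knockouts (0% of all genes passed, and 1 of 40 had an unadjusted p under 0.05 where 5.42% did) or against the Cre controls (0.0811% passed, 3 of 40 against 9.45%). Srsf3 was at 274, 247 and 309 with the allele, at 379.6, 406 and 325 in the labelled knockouts and at 388, 323 and 365 in the Cre controls (log2 change -0.42, SE 0.16, adjusted p = 0.877 against the labelled knockouts). Every library with the allele was thus below every other library of the batch. Against the labelled knockouts, Hnrnpc and Srsf6 were also below without overlap (3.38% of all genes). The 3 libraries differed among themselves: Sf3a2 was at 17.9, 0.453 and 16.3, Sf3a1 at 52.4, 43.8 and 16.4, and Srsf1 at 116, 209 and 113. Splicing events without a value also differed, at 2263, 11662 and 6167. Leaving out Myc allele library 1, Hnrnpa0, Hnrnpab and Hnrnpul2 fell against the Cre controls. Myc itself was at 71.4 to 120.2 with the allele and at 134 to 149 in the labelled knockouts.

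Many splicing factor genes stood at different levels in the 2 sets of control LT-HSC. Of the 40 genes, 22 were above in every Cre control of batch 2 against every floxed control of batch 1 and 3 were below, where 22.8% and 21.3% of all genes were. Hnrnpa0 was at 147, 145 and 156 against 50.5, 32.3 and 51.6 (3.33 times), Hnrnpa1 at 826, 795 and 766 against 396, 321 and 467 (2.02 times), and Srsf5 at 1124, 1257 and 996 against 714, 584 and 579 (1.80 times). The 3 lower genes were Srsf11 (0.643 times), Hnrnph1 (0.688 times) and Srsf7 (0.835 times). Batch and control genotype cannot be told apart here, and no test was made.

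Splicing was measured as percent spliced in (PSI), which the authors deposited for each junction relative to a competing one. Of the 275 events in these genes, 174 (63.3%) were intron retention, against 59.3% of all events, 51 cassette exons, 16 alternative 5' and 14 alternative 3' splice sites. Hnrnpu, a scaffold protein of the nucleus, held the most events (32), followed by Srsf11 (17), Hnrnpc, which binds runs of U (15), and Sf3b3, a subunit of SF3b (15). No event of these genes passed in any of the 8 comparisons tested singly or in the difference between cell types and between batches, by limma with calls made at 0.05 for the adjusted p and 0.1 for the PSI difference. The share of all events that passed was 0.127% in knockout LT-HSC, 0.127% in knockout MPP, 0.402% between cell types of floxed controls, 0.244% of knockouts, 0.0316% in the labelled knockouts of batch 2, 0.0158% and 0.0198% with the Myc allele against labelled knockouts and Cre controls, and 0.00300% in both batches together. For the difference of the knockout effect between cell types it was 0.0458% and between batches 0.108%, with 8 of 274 and 24 of 263 events at an unadjusted p under 0.05 (2.92% and 9.13%, against 7.35% and 7.30% of all events). In knockout LT-HSC 32 of 274 events had an unadjusted p under 0.05 (11.7%, against 11.1% of all events), and 17 of 274 in knockout MPP (6.20% against 8.77%). In the cell type comparisons 11 of 274 did each (4.01%, against 11.0% and 7.53%). In batch 2 there were 4, 5 and 13 of 245 (1.63%, 2.04% and 5.31%, against 2.90%, 5.95% and 4.20%), and 43 of 263 in both batches together (16.3% against 8.44%).

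None of the events below passed on the PSI scale with all libraries. Several were retained introns, the type of 63.3% of the events of these genes. Intron 2 of Hnrnph3 had a PSI of 0 in all 3 floxed control LT-HSC and of 0.16, 0.25 and 0.36 in knockouts (difference 0.26, SE 0.060, adjusted p = 0.173). In floxed control MPP it was at 0.19, 0 and 0.11. Intron 6 of Hnrnpu (mm10, chr1:178333109-178333547) was retained at 0, 0 and 0.08 in controls and at 0.13, 0.28 and 0.31 in knockouts (difference 0.21, SE 0.058, adjusted p = 0.226). In both, every knockout lay above every control. The share of all events with such a separation was not counted. The spliced junction of the same Hnrnpu intron passed without knockout LT-HSC 1, and a junction of Srsf9 that joins exons 1 and 4 (0.94, 0.97 and 0.85 in controls, 0.57, 0.61 and 0.50 in knockouts, adjusted p = 0.176, and 0.0815 for the difference between batches) passed without MPP knockout 2. In MPP, intron 1 of Hnrnpc was retained at 0 in the 3 controls and at 0.23, 0.20 and 0.23 in knockouts (difference 0.22, SE 0.039, adjusted p = 0.0696), and passed without knockout LT-HSC 1. Between floxed control cell types, splicing of intron 13 of Sf3b3 (mm10, chr8:110824320-110825502) went from 1.00 in all LT-HSC to 0.82, 0.80 and 0.81 in MPP (difference -0.19, SE 0.035, adjusted p = 0.0508), passed on the logit scale together with its retained form, and passed without MPP knockout 1. The Srsf9 junction passed between knockout cell types without MPP knockout 2, and 3 events in Hnrnph1, Srsf1 and Hnrnpu passed against the Cre controls without Myc allele library 1.

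**Figure D4:**
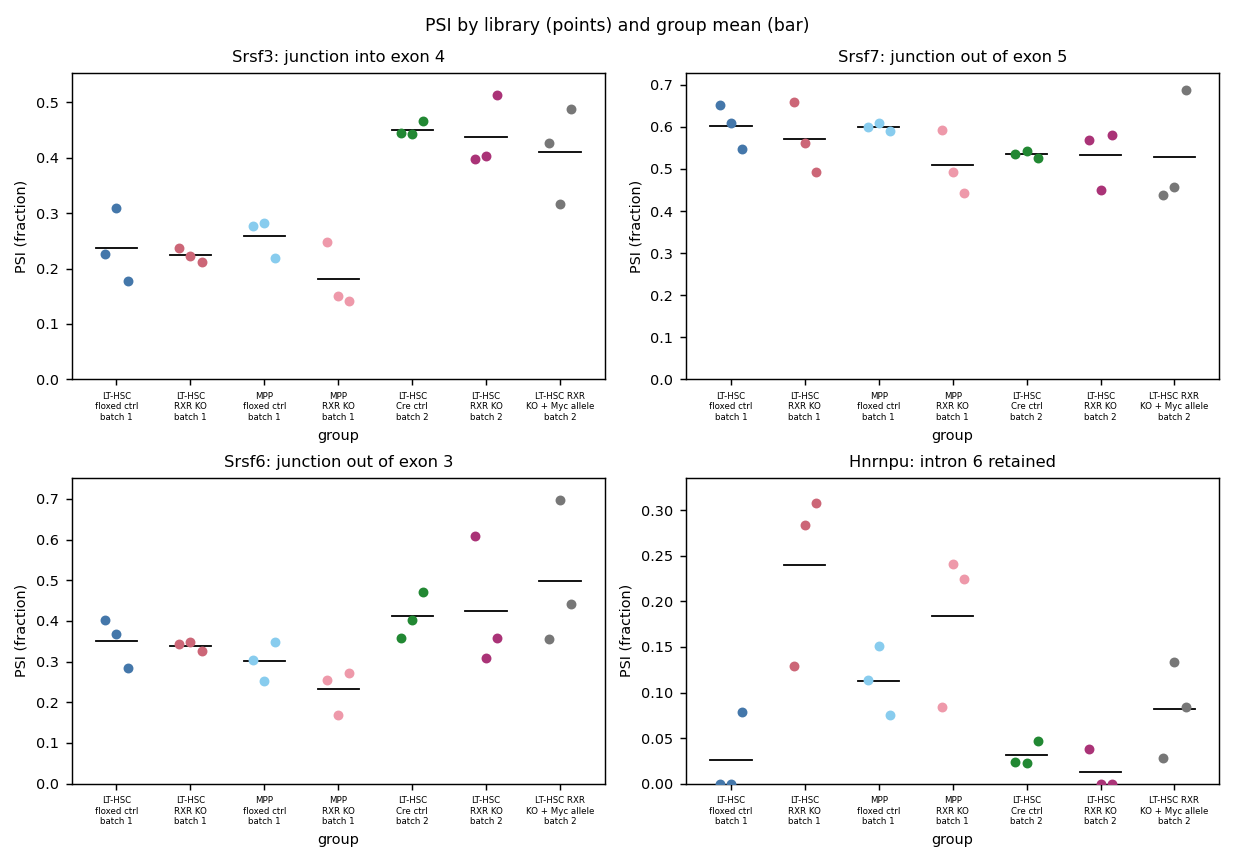
PSI (vertical axis, a fraction from 0) of 4 events in each library, by group, with bars at group means. The events were chosen after their values had been seen. The Srsf3 junction into exon 4 is higher in all batch 2 libraries than in batch 1, and intron 6 of Hnrnpu is retained most in knockout LT-HSC 2 and 3. The shares of all events with such patterns were not counted.

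The exons below were also chosen after their values had been seen, and are given without a test. Exon 4 of Srsf3, as the deposited table numbers it, holds the premature stop by which the gene controls itself. The share of its upstream junction (mm10, chr17:29038624-29039454) was 0.23, 0.31 and 0.18 in floxed control LT-HSC, 0.24, 0.22 and 0.21 in knockouts, 0.28, 0.28 and 0.22 in control MPP and 0.25, 0.15 and 0.14 in knockout MPP. In batch 2 it was 0.44, 0.44 and 0.47 in Cre controls, 0.40, 0.40 and 0.51 in the labelled knockouts and 0.43, 0.32 and 0.49 with the Myc allele, so that every batch 2 library lay above every batch 1 library. The junction on the other side of the exon divided the batches in the same way (0.05 to 0.18 and 0.24 to 0.37). How many of all events divided the batches in this way was not counted. Exon 3 of Srsf6 was joined to exon 4 at 0.40, 0.37 and 0.28 in control LT-HSC and at 0.34, 0.35 and 0.33 in knockouts, which overlap, and at 0.70 in Myc allele library 2. The junction out of exon 5 of Srsf7 was at 0.65, 0.61 and 0.55 in control LT-HSC and at 0.66, 0.56 and 0.49 in knockouts, with overlap, and ran from 0.44 to 0.69 over the other groups. A junction of Hnrnpll, a regulator of CD45 splicing in lymphocytes, from exon 6 to a position within intron 6 had a PSI of 0.91 in Myc allele library 2 and at most 0.24 in the other 20. That library had the most events without a value (11662) and the lowest Hnrnpll level (6.77 rescaled TPM). The part of coverage in its PSI was not tested. Exon 7 of Hnrnpd, which differs between its protein isoforms, ran from 0.61 to 0.67 at its upstream junction in the 12 libraries of batch 1.

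Retention was also summarised over the 52 retained intron junctions of these genes with a value in all 21 libraries, again without a test. Their median PSI was 0.0800, 0.109 and 0.0971 in floxed control LT-HSC and 0.107, 0.169 and 0.180 in knockouts, and the same medians over 4573 junctions of all genes were 0.0506, 0.0435 and 0.0811 against 0.0862, 0.124 and 0.133. Knockouts 2 and 3 were the highest of all libraries in the first and among the highest in the second, so the splicing factor genes did not stand alone. In MPP the medians were 0.128, 0.133 and 0.0992 in controls and 0.0850, 0.155 and 0.144 in knockouts, which overlap. In batch 2 they were 0.0258, 0.0366 and 0.0353 in Cre controls, 0.0749, 0.0610 and 0.0728 in the labelled knockouts and 0.0284, 0.115 and 0.124 with the Myc allele, while the median over all genes was 0 in each of these 9 libraries. The 10 junctions of Hnrnpu had medians of 0.0856, 0.169 and 0.0764 in control and 0.122, 0.286 and 0.302 in knockout LT-HSC. Events without a value numbered 964 to 2384 in batch 1 libraries and 1363 to 11662 in batch 2, and the part of depth in these medians was not tested.

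**Figure D5:**
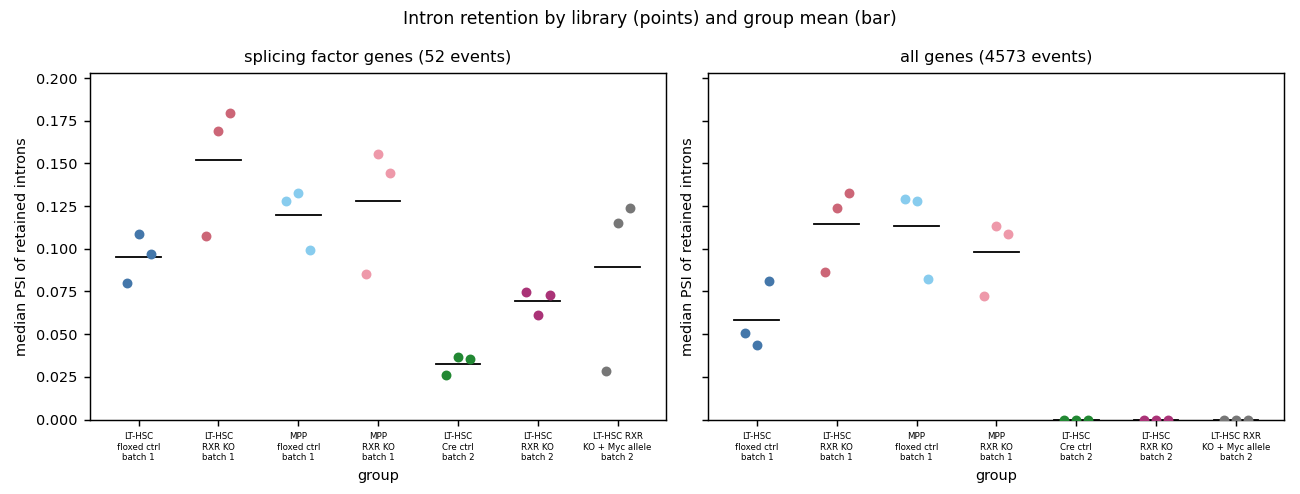
Median PSI of retained introns (vertical axis, from 0) in each library, for the 52 events of splicing factor genes on the left and 4573 events of all genes on the right, with bars at group means. In batch 1 LT-HSC, knockouts 2 and 3 lie highest in both panels, and on the right the batch 2 libraries are at 0.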

How the data were processed

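RNA of sorted cells (5 ng, Ovation RNA-seq v2 and Nextera XT libraries, NovaSeq sequencing, per the labels' protocols) had been quantified by the authors as TPM per gene, deposited in 1 table. Kallisto, STAR 2.6 and mm10 are named in the submitters' processing notes, without roles. Splice junction PSI were deposited by the authors as a fraction from 0 to 1. The event caller, read minimum and kallisto version were not given in the sources used here. The PSI table lists only events whose deposited dPSI is at least 0.15.

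Groups came from the sample titles, which name no batch, and the 2 batches match 2 runs of library numbers in the sample descriptions. Deposited TPM were divided by median-of-ratios factors over 14964 genes above 0 in all 21 libraries, genes with at least 1 rescaled TPM in 3 libraries were kept, and log2(rescaled TPM + 1) was tested with limma 3.58.1 (R 4.3.3, trend, two-sided, Benjamini-Hochberg over all genes tested), so log2 changes of low genes are understated. Batch 1 (12 libraries, 4 groups) and batch 2 (9 libraries, 3 groups) were fitted apart, and both together for LT-HSC with batch as a term. Calls need an adjusted p under 0.05, and events also a PSI difference of at least 0.1 and a value in every library of the fit. Named by rule were up to 6 genes that passed in each direction per comparison, by size of change, the 3 genes with the highest and the 3 with the lowest mean level, and the 3 with the most events; other genes and events named were chosen after their values were seen. The members, lists and tests were chosen with earlier results of these data known. The p-values measure the spread between libraries of pooled animals. Depth behind TPM and PSI is unknown, so no counting intervals are given. Older symbols (Hnrpdl, Hnrpll) placed 14 of the 275 events. LT-HSC and MPP share pool codes in the labels, and same-pool deviations correlated at 0.051 to 0.082 in floxed controls and at 0.157 to 0.541 in knockouts. Scripts were tested on simulated data. Alternatives were deposited TPM, other scalings, filters and pseudocounts, the replicate block, the logit of PSI and leaving out each library.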

Additional observations from a re-analysis of the deposited data

How the results depend on the processing

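Of 186 counts of splicing factor genes recomputed under alternatives, 147 stayed within 1.5 times the first value and 39 did not, and of 117 counts of events 110 did and 7 did not. All event counts started from 0, and so did the gene counts outside the 3 comparisons given next. A count of 0 that stayed at 0 was scored as unchanged, so these totals do not show that the calls were stable. For knockout against control LT-HSC the count of 2 became 7 on deposited TPM, 1 with factors computed within the fit, 1 without the identifier that takes most of the TPM scale, 0 without the filter on low values, 0 with the groups fitted alone, and 0 to 5 without single libraries. For MPP against LT-HSC in floxed controls the count of 1 became 4 on deposited TPM, 0 by quantile scaling, 2 without the filter, 0 with the groups alone, 6 with the replicate block and 0 to 12 without single libraries. In knockouts the count of 13 became 1 on deposited TPM, 3 without the highest identifier, 4 by quantile scaling, 20 with the replicate block and 1 to 19 without single libraries. Leaving out single libraries gave 0 to 3 genes for the Myc allele against Cre controls and 0 to 1 for both batches together. Among these alternatives the share of all genes that passed was counted for deposited TPM alone. Events went from 0 to 2 on the logit scale between floxed control cell types. Without single libraries they reached 0 to 1 in both knockout comparisons of batch 1 and both cell type comparisons, and 0 to 3 for the Myc allele against Cre controls. Among 320 values of single genes, 180 kept their call, 138 lost it and 2 changed sign: Sf3b1 in knockout LT-HSC (0.15 on deposited TPM, still below the median of 0.52 of all genes on that scale) and Hnrnpa2b1 in knockout MPP against knockout LT-HSC (-0.079 by quantile scaling). The cause of these shifts was not tested. The replicate block changed calls in the 2 cell type comparisons as given, and not the count of 2 in knockout LT-HSC. Floxed controls and knockouts, and the batch 2 groups, share only a number (correlations from -0.143 to 0.282). The Myc allele comparisons were not fitted with a replicate block, because their replicate numbers differ.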
